A study of Mus musculus with 100 samples.

Results

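The cytosolic ribosomal protein genes described here are 79 of the 25965 genes in the expression table. They were chosen by name and not by level, as the autosomal genes named Rpl or Rps followed by a number, together with Rplp0, Rplp1, Rplp2 and Rpsa, and without the rows of processed pseudogenes. Of these, 73 encode core proteins, 30 of the small (40S) subunit, 40 of the large (60S) subunit and 3 of the P stalk, and 6 are paralogs of a core gene (Rpl3l, Rpl7l1, Rpl10l, Rpl22l1, Rpl39l and Rps27l). They lie on 18 autosomes, from 1 gene on chromosomes 6 and 13 to 14 genes on chromosome 7.

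The study asked how the sex of the cells and the culture medium relate to imprinting in mouse induced pluripotent stem cells (iPSCs), and its RNA-seq covers 18 libraries in 6 groups of 3 replicates. Female MEFs are fibroblasts of mid-gestation embryos from a cross of C57BL/6J (BL6) mothers, which carry a doxycycline-inducible cassette of Oct4, Sox2, Klf4 and c-Myc (i4F), with Mus musculus castaneus (CAST) fathers, and by the study's methods they come from 1 female embryo, the source of the female lines as well. F KSR2 and F KSR4, both female, and the male M KSR3 and M KSR5 are iPSC lines that were reprogrammed with doxycycline from MEFs of this cross and kept in medium with knockout serum replacement (KSR) and LIF on feeder cells, and each line was picked as 1 clone. TX 2i ESCs are a female embryonic stem cell line of the same 2 strains, grown in serum medium with LIF and the 2 inhibitors of 2i, CHIR99021 and PD0325901. All 6 groups are thus F1 hybrids of BL6 and CAST. The labels call the replicates biological triplicates without saying what separates them, so a p-value measures the spread among these libraries. Summed over 8 pluripotency markers, female MEFs had 1.52 to 2.51 RPM (reads of a gene scaled to the depth of the library) and the 5 pluripotent groups 4260 to 8490, and summed over 15 fibroblast markers the values were 39700 to 49900 and 634 to 2190.

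The ribosome is built from ribosomal RNA, transcribed by RNA polymerases I and III, and from ribosomal proteins in fixed proportions. Messenger RNAs of ribosomal proteins are among the most abundant of a growing cell, and most begin with a C followed by a run of pyrimidines, the 5' terminal oligopyrimidine (TOP) motif, through which mTOR and Larp1 control their translation and stability. Some core genes have an expressed copy, often a retrogene, with its own tissue pattern. Rpl10l and Rpl39l are known from the male germ line, where they stand in for their X-linked parents, and Rpl3l is known from striated muscle.

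The start sites show a feature that most core genes with a matched start share and that the rule did not use. Each line below gives 20 bases before and 10 bases after the transcription start of a RefSeq gene on its own strand (build GRCm38.p6), 5' to 3', with a C and at least 5 following pyrimidines in capitals. They were chosen to show core genes of each role with a run and Rplp0 without one, and all 6 paralogs. Of the paralogs without a run, Rpl10l and Rpl3l had no reads in MEFs, while Rpl7l1 was at 178 RPM per kb of coding length.
Rpl35 (60S; chr2:39005122-39005151, minus strand): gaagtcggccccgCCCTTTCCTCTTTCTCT
Rps6 (40S; chr4:86857358-86857387, minus strand): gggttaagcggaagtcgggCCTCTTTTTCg
Rpl28 (60S; chr7:4792945-4792974, plus strand): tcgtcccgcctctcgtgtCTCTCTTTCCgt
Rplp2 (P stalk; chr7:141447631-141447660, plus strand): cccactgcgtcagcgtCTTCCTTTCgccgc
Rplp0 (P stalk; chr5:115559447-115559476, plus strand): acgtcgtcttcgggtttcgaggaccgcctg
Rps27l (paralog; chr9:66946066-66946095, plus strand): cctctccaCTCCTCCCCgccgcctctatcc
Rpl22l1 (paralog; chr3:28805488-28805517, plus strand): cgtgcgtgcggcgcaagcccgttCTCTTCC
Rpl39l (paralog; chr16:10170208-10170237, plus strand): cctagctcccaggCCTTTCCggatttccgg
Rpl10l (paralog; chr12:66284392-66284421, minus strand): agaaatttggcctccattttgcggctggcg
Rpl3l (paralog; chr17:24727806-24727835, plus strand): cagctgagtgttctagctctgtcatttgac
Rpl7l1 (paralog; chr17:46782647-46782676, minus strand): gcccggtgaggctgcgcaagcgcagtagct

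RefSeq start sites were matched for 59 members, 53 core genes and 6 paralogs. The run of pyrimidines was in the window of 34 of 53 core genes (64.2%) and 3 of 6 paralogs, against 7121 of 27025 genes (26.3%). It was counted anywhere in the window and need not be a TOP motif. In Rps27l and Rpl39l it lies wholly before the annotated start. Within the 300 bases around the start, CCGGAAG on either strand was in 43.4% of core genes and 9.93% of all genes, TCTCGCGA in 20.8% and 1.13%, AAGATGGC in 9.43% and 3.19%, and TATAAA in 5.66% and 9.77%. The pyrimidine run and TATAAA were searched on the gene's strand, the other motifs on both strands, and matches of different motifs may overlap. These matches describe the letters of the windows and not binding.

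The members took up several percent of all reads on genes, and less in fibroblasts than in pluripotent cells. The libraries held 13183036 to 17921280 reads on genes each. In female MEFs the members held 3.92, 3.22 and 4.10% of them in the 3 replicates, 3.75% ± 0.464 (SD, n = 3). The share was 5.06, 6.21 and 7.27% for F KSR2, 5.08, 6.10 and 6.20% for M KSR3, and 5.46, 6.15 and 7.45% for M KSR5. All 9 of these libraries lay above the MEF libraries, and so did TX 2i ESCs with 5.50, 6.58 and 6.79%. F KSR4 had the highest mean, 8.99% ± 2.45 (SD, n = 3), with 6.18% in replicate 1 and 10.6 and 10.2% in the others. The plot of shares by library shows this spread.

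**Figure D1:**
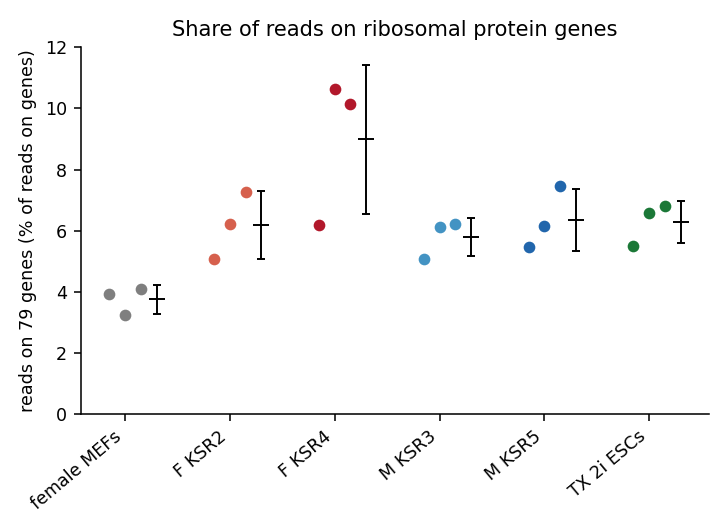
Share of the reads on genes that fell on the 79 ribosomal protein genes (y axis, percent), by group (x axis). Each point is 1 library, and the bars give the mean and SD of 3 replicates. The 3 MEF libraries lie between 3.22 and 4.10%, below all 15 pluripotent libraries, and 2 of the F KSR4 libraries exceed 10%.

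The 15 pluripotent libraries averaged 6.72% ± 1.65 (SD), 2.97 percentage points and 1.79 times above the 3 MEF libraries (p = 0.0147, exact two-sided permutation test over libraries, of which the smallest possible p was 0.00123). The 15 libraries come from 5 lines, and a test on the 6 group means cannot go below p = 0.167 and gave 0.333 by exact permutation. KSR-iPSCs (6.83% ± 1.82, n = 12) and TX 2i ESCs (6.29% ± 0.691, n = 3) differed by 0.538 points, less than the spread among libraries (p = 0.712, exact permutation test), and without the F KSR4 line the difference was -0.181 points. Female lines (7.58% ± 2.29, n = 6) were 1.51 points above male lines (6.07% ± 0.812, n = 6), also within the spread (p = 0.203, exact permutation test), and 0.104 points above without F KSR4. The rise over MEFs was 2.41 points without that line (p = 0.0022, the smallest that the exact permutation test then allows). In bulk RNA a different share of cells of a type and a different amount of RNA per cell cannot be told apart.

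Within a group the members rose and fell together from library to library. In F KSR2, 2 of 79 members were above their group mean in replicate 1 and 77 in replicate 3, and in TX 2i ESCs 2 and 77. Replicate 1 had the lowest share in each of the 5 pluripotent groups. In MEFs replicate 2 was lowest, with 0 of 79 members above the group mean. Both subunits followed: 40S genes held 1.50% of reads in MEFs and 3.61% in F KSR4, 60S genes 1.89 and 4.73%, and the reads on 40S genes per read on 60S genes stayed between 0.691 and 0.813 (median 0.765) over the 18 libraries. In the 2 high F KSR4 libraries, 82.5 and 89.1% of library reads fell on genes, within the range of 82.5 to 92.3% of all libraries. Reads of mitochondrially encoded genes were 1.84 to 3.38% in F KSR4 and 1.21 to 2.13% in the other groups. The part of these values in the high shares was not tested.

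As log2 RPM averaged over the 18 libraries, the highest members were Rpl4 (11.17), Rplp0 (10.55 to 11.63 over the libraries) and Rpl8 (10.61), and the lowest core members Rpl35a (6.96), Rpl17 (6.75) and Rpl21 (6.0). Divided by coding length, the 73 core members had a median level of 1730 RPM per kb, from 155 for Rpl21 to 10300 for Rpl41. Reads also fall on the untranslated ends, so this corrects for length only in part. The coding sequence of Rpl41 has 78 bases and its messenger RNA 449, which raises its value. Processed pseudogenes can take reads from their parents. For 50 of 79 members at least 50% of the 50-base windows of the messenger RNA had an exact copy elsewhere in the genome, and 3 members, Rpl39l and Rpl3l among them, had none. Core members with at least 50% of windows copied had a median level per length of 1690 RPM per kb (n = 49) and the others 1880 (n = 24). The level of a member with many copies is therefore uncertain, and Rpl41 (80.8% of windows copied) is an example. The 60 pseudogene rows of the table held 0.0495 to 0.16% of the reads of a library, of which Rpsa-ps10 took 26.8%.

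Between female MEFs and the pluripotent groups, nearly the whole set was higher in pluripotent cells and by about the same amount. All 79 members had a mean above that of MEFs, and 74 rose past an adjusted p of 0.05 (limma, Benjamini-Hochberg over 14632 genes tested) and 0 fell. Of all genes tested 42.1% rose and 32.5% fell, so that a call by itself is common here. The median difference of the members was 0.77 on the log2 scale against 0.21 for all genes, and the 10th to 90th percentile was 0.50 to 1.00 against -3.01 to 3.21. The libraries of 53 members did not overlap between MEFs and pluripotent cells, as was so for 25.9% of all genes in that direction and 23.9% in the other. Where libraries were scaled by the median of ratios, which moves the median of all genes by -0.24, 63 members were higher, with a median of 0.53.

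By role, 29 of 30 genes of the 40S subunit were higher (median difference 0.75, log2), 39 of 40 of the 60S subunit (0.79), 1 of 3 of the P stalk (0.34) and 5 of 6 paralogs (1.8). Set at their lower bounds, the paralogs without MEF reads (8.71 for Rpl10l and 3.97 for Rpl3l) stayed above the middle values. The median of the paralogs could therefore not move from 1.8. The members that did not pass were Rplp0, Rplp1, Rps20, Rpl41 and Rps27l.

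Among core genes, Rpl8 of the 60S subunit rose most. Its log2 level in MEFs was 9.84, 9.41 and 9.73, and in the 15 pluripotent libraries the lowest was 10.3, the median 10.69 and the highest 11.31. The groups did not overlap, and the difference was 1.14 ± 0.16 (SE; adjusted p = 4.35e-06, limma). Rpl13, also of the 60S subunit, was at 9.11, 8.79 and 9.13 in MEFs and at 9.36, 10.03 and 11.15 (lowest, median and highest) in pluripotent libraries. Its difference of 1.10 ± 0.18 had an adjusted p of 2.17e-05 (limma) without overlap. Rpl36 was at 6.89, 6.60 and 7.11 and at 7.35, 7.95 and 8.72, again without overlap (1.07 ± 0.22, adjusted p = 0.000232, limma).

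The P stalk, which recruits the elongation factors to the ribosome, moved less. Rplp0, its scaffold, was at 10.8, 10.55 and 10.82 in MEFs and at 10.66, 11.03 and 11.63 (lowest, median and highest) in the pluripotent libraries. The groups overlapped (0.32 ± 0.17, adjusted p = 0.0903, limma; 0.37 and 0.0207 without F KSR4 replicate 1). Rplp1 was at 9.86, 9.57 and 9.95 and at 9.46, 10.02 and 11.06, with overlap as well (0.34 ± 0.21, adjusted p = 0.142, limma), and passed without F KSR4 replicate 1 (0.40, adjusted p = 0.0469). Rplp2 rose without overlap, from 8.59, 8.16 and 8.64 to 8.69, 9.18 and 9.70 (0.67 ± 0.16, adjusted p = 0.00124, limma). When each library was centred on the median of the members, so that only differences among members remained, Rplp0 (-0.40, adjusted p = 0.0143) and Rplp1 (-0.39, adjusted p = 0.0159) were the 2 members called lower in pluripotent cells, and Rpl8, Rpl18, Rpl36, Rpl10l, Rpl3l and Rpl39l the 6 called higher (limma). That centring also changes the split of calls over all genes, from 6167 higher and 4750 lower to 3179 and 6670. Rpsa, a 40S protein that is also known as a laminin receptor, was at 10.13, 9.72 and 10.0 in MEFs and at 10.04, 10.64 and 11.45 in pluripotent libraries, a difference of 0.74 ± 0.20 (adjusted p = 0.00263, limma) with overlap.

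**Figure D2:**
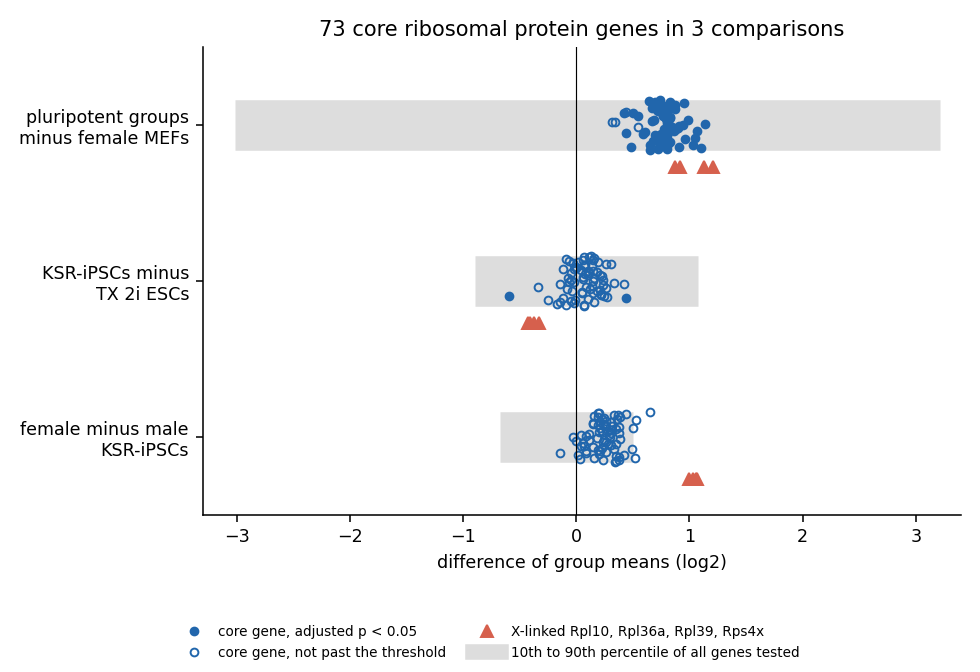
Differences of group means in log2 RPM (x axis) of the 73 core ribosomal protein genes in 3 comparisons (y axis), filled where the adjusted p was under 0.05. Grey boxes span the 10th to 90th percentile of all genes tested, and triangles mark the 4 X-linked genes Rpl10, Rpl36a, Rpl39 and Rps4x. The core genes lie in a narrow range around 0.77 between pluripotent cells and MEFs, and the X-linked genes stand near 1 between female and male lines, where the autosomal genes lie around 0.24.

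Most genes of ribosome biogenesis and RNA polymerase I were also higher in pluripotent cells, where 42.1% of all genes tested were called higher and the median gene differed by 0.21. Of 37 genes of ribosome biogenesis 35 rose (median difference 1.23), among them Dkc1, the pseudouridine synthase of ribosomal RNA (2.64 ± 0.14, adjusted p = 2.75e-11, limma), and Sbds (-0.16) and Eif6 (0.06), which act on the late 60S subunit, did not pass. All 10 genes of RNA polymerase I and its factors rose (median 1.15), with Polr1b, its second largest subunit, at 1.87 ± 0.20. Of 16 translation factors and other genes with TOP messenger RNAs 12 rose (median 0.70), with Hnrnpa1, an RNA-binding protein, at 1.49 ± 0.16, while Tpt1 (-0.04 ± 0.18) and Eef1a1 (0.30 ± 0.21), the elongation factor, did not pass. Of 10 regulators of growth and of TOP messenger RNAs 5 rose (median 0.33), a share near that of all genes: Mycn (6.69 ± 0.29, adjusted p = 1.16e-12, limma), Eif4ebp1 (1.24), Larp1 (0.77), Mtor (0.61) and Maf1 (0.43). Myc was at a mean log2 level of 6.74 in MEFs and between 3.45 (TX 2i ESCs) and 6.98 (M KSR5) in the pluripotent groups. Of 76 mitochondrial ribosomal protein genes 56 rose and 2 fell (median 0.77).

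Of the 6 paralogs, Rpl10l, Rpl3l and Rpl39l had the largest mean differences between pluripotent cells and MEFs, and Rpl7l1 (0.92), Rpl22l1 (0.49) and Rps27l (0.36, adjusted p = 0.182, limma, not called) lay nearer the median member. Rpl10l, an intronless copy of the X-linked Rpl10 (chr12:66283381-66284401, GRCm38), had 0 reads in each MEF library. The F KSR2 libraries held 1789, 821 and 399 reads, those of F KSR4 648, 798 and 691, those of M KSR3 788, 1358 and 1402, those of M KSR5 402, 629 and 604, and those of the ESCs 2708, 2274 and 2217. No library of a pluripotent group came near 0. With MEFs set at 3 reads per library, the limit that a count of 0 allows, the level in RPM was at least 193-fold higher in M KSR5, 271-fold in F KSR4, 363-fold in F KSR2, 407-fold in M KSR3 and 857-fold in TX 2i ESCs. The test of the pluripotent groups against MEFs used the deposited values and not this limit (adjusted p = 4.48e-15, limma). A gene without reads stands there at 0.9 read. Of the reads on Rpl10 and Rpl10l per coding length, Rpl10l made up from 3.07% ± 0.394 (SD, n = 3; F KSR4), 4.71% ± 0.793 (M KSR5) and 5.65% ± 4.3 (F KSR2) to 11.2% ± 1.89 (M KSR3) and 11.4% ± 1.57 (TX 2i ESCs). The parent thus supplied most of the pair in every group. Of the messenger RNA of Rpl10l, 26.3% of 50-base windows have a copy elsewhere.

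Rpl39l, the copy of the X-linked Rpl39 (chr16:10170226-10174911), was low in MEFs with 17, 28 and 47 reads. F KSR2 had 157, 190 and 277 reads, F KSR4 263, 247 and 210, M KSR3 68, 74 and 66, M KSR5 145, 285 and 40, and the ESCs 421, 424 and 354. M KSR5 replicate 3 fell within the MEF range and all other pluripotent libraries lay above it (difference 2.68 ± 0.39, log2, adjusted p = 7.46e-06, limma). Its share of the pair per coding length was 1.69% ± 0.506 in MEFs and from 3.45% ± 1.09 (M KSR3) to 10.2% ± 3.76 (TX 2i ESCs) in the pluripotent groups.

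Rpl3l (chr17:24727829-24736149), the muscle copy of Rpl3, was not detected in the 3 MEF libraries and had 19 to 90 reads in pluripotent libraries. Its level was at least 11.8-fold (M KSR5) to 24.6-fold (M KSR3) above that limit, and its share of the pair with Rpl3 did not exceed 0.6% in any library. Germ cell markers (6 genes) summed to 0.288 to 0.596 RPM in MEFs and 79 to 309 in the pluripotent groups, with 1 or 2 of the 6 at 0 in each pluripotent group and 2 in MEFs (Prm1 and Tnp1 in MEFs, F KSR2 and F KSR4). Striated muscle markers (6 genes) summed to 18.6 to 169 RPM with 0 of 6 at 0 in every group, MEFs included. These sums rest mainly on 2 genes that went opposite ways. Acta1 had 328 to 802 reads in MEFs and 0 to 115 in pluripotent libraries, and Ttn 1 to 21 and 179 to 2646. The other muscle markers had at most 63 reads in a library. The part of the germ cell and muscle markers in the paralogs' levels was not tested.

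Rpl7l1 and Rpl22l1 rose more modestly and Rps27l did not pass. Rpl7l1, the copy of Rpl7 that takes part in ribosome biogenesis, was at 6.94, 6.90 and 6.92 (log2) in MEFs and at 6.26, 7.92 and 8.29 (lowest, median and highest) in pluripotent libraries. Only F KSR4 replicate 2, the lowest, lay below the MEFs (0.92 ± 0.22, adjusted p = 0.00125, limma). Rpl22l1, the copy of Rpl22, was 0.49 ± 0.18 higher (adjusted p = 0.018, limma), was not called with median-of-ratios scaling or without MEF replicate 1 or 2, and was at -0.23 when centred on the members. Rps27l, a p53 target copied from Rps27, differed by 0.36 ± 0.24 (adjusted p = 0.182, limma) with overlapping groups.

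**Figure D3:**
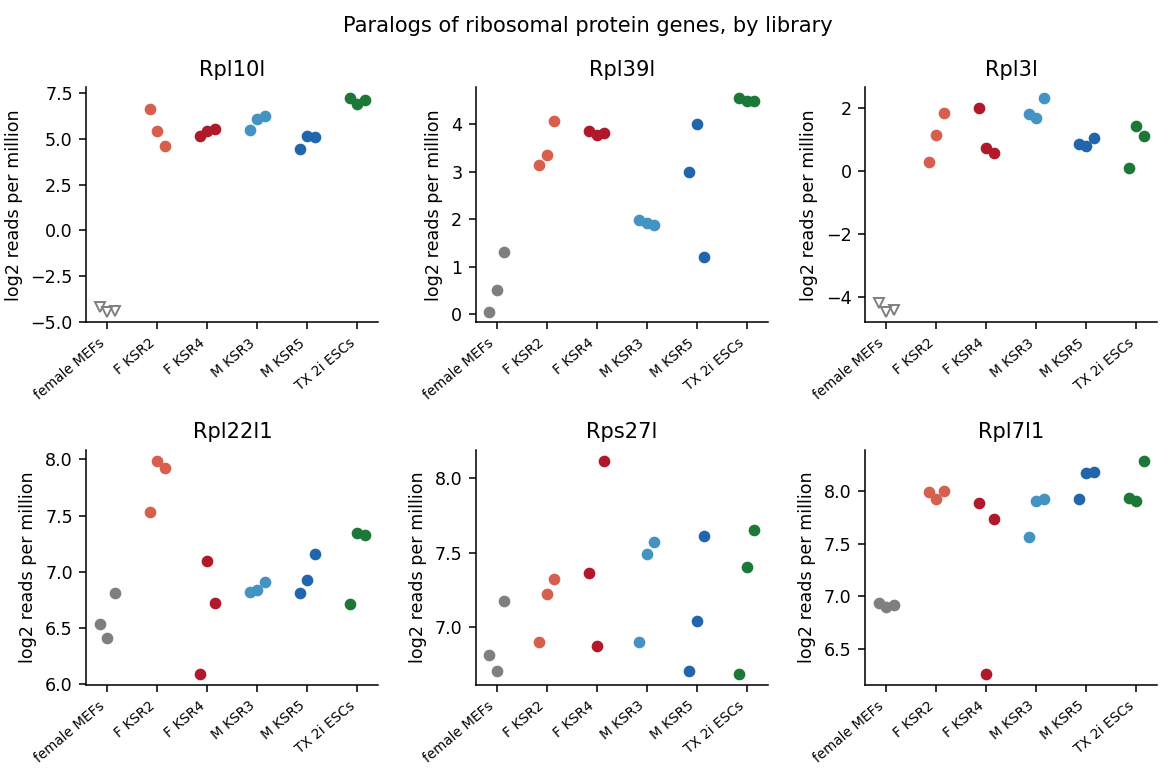
Level of the 6 paralogs in log2 RPM (y axis) in each library, by group (x axis), with 1 panel per gene and its own scale. Open triangles are libraries without a read, drawn at the value that the table holds for them. Rpl10l and Rpl3l have no reads in MEFs, Rpl39l is highest in TX 2i ESCs, and Rpl22l1 is highest in F KSR2.

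Several ribosomal protein genes outside the rule were also higher in pluripotent cells. Among X-linked genes, Rps4x was 1.13 ± 0.17, Rpl36a 1.21 ± 0.18, Rpl39 0.92 ± 0.22 and Rpl10 0.87 ± 0.15 higher in pluripotent cells (log2). The paper infers that both X chromosomes are active in its female iPSCs, whereas female somatic cells carry an inactive X. These genes were also higher in female than in male lines. The part of X dosage in their rise over MEFs was not tested. Gnb2l1, the 40S protein Rack1, was 0.46 ± 0.17 higher. The table also holds Rps4y2, a copy of Rps4x on chromosome 6 that was picked after its values were seen. It had 701, 639 and 752 reads in MEFs and 4503 to 10166 in pluripotent libraries, with no overlap (3.62 ± 0.20, adjusted p = 3.2e-11, limma), and of the reads on both genes, without correction for length, it held 4.31% ± 0.0901 in MEFs and from 14.0% ± 6.87 (F KSR4) to 27.9% ± 0.375 (M KSR3) in the pluripotent groups.

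KSR-iPSCs and TX 2i ESCs had nearly the same levels of core members, and the paralogs Rpl10l and Rpl39l were lower in KSR-iPSCs. Of 79 members 1 rose in KSR-iPSCs and 3 fell (limma), against 11% and 12.0% of all genes tested (23.0% in all). The median difference was 0.07 for the members and -0.0 for all genes. The members that passed were Rpl10l (-1.64 ± 0.29, adjusted p = 0.000685), Rpl39l (-1.52 ± 0.40, adjusted p = 0.0104), Rpl24 (-0.59 ± 0.15, adjusted p = 0.0102) and Rpl21 (0.44 ± 0.13, adjusted p = 0.0174, limma). For Rpl10l the 3 ESC libraries lay at log2 levels of 7.25, 6.93 and 7.14 and the highest KSR-iPSC library at 6.65. The Rpl39l values of the ESCs were 4.56, 4.50 and 4.49 and the highest KSR-iPSC value was 4.08, so that neither paralog overlapped, as for 6.21% of all genes in that direction (3.94% in the other). Rpl21 was called only with all 3 ESC libraries, and leaving out any of them left 0 members higher. Without F KSR4 replicate 1 there were 2. Outside the rule, Rps4y2, the copy of Rps4x, was not called (-0.10 ± 0.20, adjusted p = 0.787, limma). The X-linked Rpl10 was lower in KSR-iPSCs, which include male lines (-0.43 ± 0.15, adjusted p = 0.0446, limma). Rpl36a (-0.41), Rps4x (-0.37) and Rpl39 (-0.33) were not called.

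Rpl24, a 60S protein named here after its values were seen, was at 9.86, 10.06 and 10.2 in TX 2i ESCs and reached 10.12 in F KSR4, so the groups overlapped. It lies on chromosome 16, where the median difference between KSR-iPSCs and TX 2i ESCs was -0.54 over 445 genes and -0.59 over 3 members, against 0.08 for members elsewhere (log2). Rpl39l and Rpl35a are the other members there. The part of the chromosome in the differences of Rpl24 and Rpl39l was not tested. Of the regulators, Rps6kb1, the S6 kinase, was 0.62 ± 0.18 higher in KSR-iPSCs and Eif4ebp1, a repressor of cap-dependent translation, was lower (-0.73 ± 0.14). Myc was 2.44 ± 0.75 higher (adjusted p = 0.0259, limma) with means between 4.21 and 6.98 in the 4 lines.

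Between female and male KSR-iPSCs no autosomal member passed the test, while each of the 4 X-linked ribosomal protein genes did. Of 79 members 0 were called (limma; 6 at an unadjusted p under 0.05), against 1.59% of all genes higher and 1.28% lower in female lines (2.87% in all). The libraries of 0 members were free of overlap, against 1.33% of all genes higher and 1.48% lower. The means of 75 members were higher in female lines, with a median difference of 0.24 against -0.11 for all genes. When libraries were scaled by the median of ratios the calls among all genes were 263 higher and 123 lower in place of 216 and 174, and centred on the members 27 and 77, and 0 members were called with either. Without the F KSR4 line the median of the members was 0.02, with 2 members called higher, Rpl22l1 (0.90) among them, and 1 lower. There were also 2 calls without F KSR4 replicate 1, and 1 without M KSR5 replicate 2 or 3.

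The members nearest to the threshold were Rpl39l (1.34 ± 0.38, adjusted p = 0.0719), Rpsa (0.65 ± 0.19, adjusted p = 0.0807) and Rpl14 (0.52 ± 0.16, adjusted p = 0.0915, limma). Rpl39l was called without M KSR5 replicate 2 (1.67) and Rpsa without F KSR4 replicate 1 (0.76) or M KSR5 replicate 3 (0.74). Of the X-linked genes, Rps4x was at 10.74, 11.07 and 11.3 (F KSR2), 11.14, 11.89 and 11.67 (F KSR4), 9.94, 10.22 and 10.25 (M KSR3) and 10.19, 10.27 and 10.6 (M KSR5). The sexes did not overlap in Rps4x (1.06 ± 0.19, adjusted p = 0.00739, limma). Rpl36a (1.07 ± 0.19), Rpl10 (1.03 ± 0.18) and Rpl39 (1.0 ± 0.20) differed by similar amounts. Mtor, which acts upstream of TOP messenger RNAs, was lower in female lines (-0.77 ± 0.16, adjusted p = 0.0171, limma). Against the other 3 lines, 1 of the 10 regulators was called lower and 0 higher in F KSR2, and 0 were called in F KSR4. The part of each female line in the Mtor difference was not tested.

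Single lines differed in few members, and the pair of Rpl22 and Rpl22l1 was the clearest case. Rpl22, a 60S protein that is not essential in mice and is known to repress its copy Rpl22l1, was at log2 levels of 7.6, 7.97 and 8.16 in F KSR2. In the other KSR-iPSC lines it was at 8.76, 9.83 and 9.55 (F KSR4), 8.46, 8.82 and 8.83 (M KSR3) and 8.71, 8.79 and 9.11 (M KSR5). F KSR2 lay below all of them and near the MEFs (7.98, 7.72 and 8.01), and it differed from the mean of the other 3 lines by -1.07 ± 0.20 (adjusted p = 0.00497, limma). TX 2i ESCs were at 8.46, 9.09 and 8.96. Rpl22l1 went the other way, at 7.53, 7.99 and 7.92 in F KSR2 and at 6.09, 7.10 and 6.72 (F KSR4), 6.82, 6.84 and 6.91 (M KSR3) and 6.81, 6.93 and 7.16 (M KSR5). It was 0.99 ± 0.19 higher in F KSR2 without overlap (adjusted p = 0.0055, limma). These 2 were the members called in F KSR2, against 3.67% of all genes (1.98% higher, 1.69% lower). Only Rpl22l1 was called without F KSR2 replicate 1, where Rpl22 was at -0.92 (adjusted p = 0.0502, limma), and only Rpl22 without F KSR2 replicate 2, where Rpl22l1 was at 0.90 (adjusted p = 0.0515, limma). Centred on the members, Rpl14 was called as well (0.69), and the calls over all genes were 129 higher and 65 lower in place of 290 and 247.

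Of the reads on the pair per coding length, Rpl22l1 made up 53.8% ± 2.2 (SD, n = 3) in F KSR2, 33.3% ± 1.81 in MEFs, 27.6% ± 0.885 in the ESCs, and 15.8% ± 0.748 (F KSR4), 25.8% ± 2.38 (M KSR3) and 25.0% ± 0.611 (M KSR5) in the other lines. The range of F KSR2, 51.4 to 55.8%, lay above that of every other group. The messenger RNA has 2153 bases in Rpl22 and 486 in Rpl22l1, with coding lengths of 456 and 366. The shares thus compare groups, and which of the 2 genes supplies more depends on the length used. Few windows of Rpl22 (5.51%) but 69.6% of those of Rpl22l1 have an exact copy elsewhere.

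Reads that carry a strain-specific SNP showed that almost all Rpl22 of F KSR2 came from the CAST allele. The BL6 share of its allelic reads was 1.67, 1.87 and 4.49% in F KSR2 (2510 allelic reads in all). It was 51.6, 52.2 and 53.7% in MEFs, and 50.9, 54.2 and 51.1% (F KSR4), 54.7, 50.8 and 49.9% (M KSR3) and 52.0, 52.3 and 51.8% (M KSR5) in the other lines. F KSR2 differed by -49.3 percentage points from the other 9 KSR-iPSC libraries (p = 0.00455, the smallest that the exact permutation test can give, adjusted p = 0.0625). The genes around Rpl22 shared this. Of 57 genes within 2 Mb, 21 had enough allelic reads, and in F KSR2 all 21 had a BL6 share under 10% (median 3.5%, highest 8.86%) against a median of 53.5% in the other lines. Their median difference in level was -0.93, from -1.44 to -0.20, and 14 of 21 were called lower and 0 higher. Over the whole of chromosome 4 the median share in F KSR2 was 50.2%, and Rps20, Rpl11 and Rps6, members elsewhere on it, were at 52.4, 59.0 and 29.1%.

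**Figure D4:**
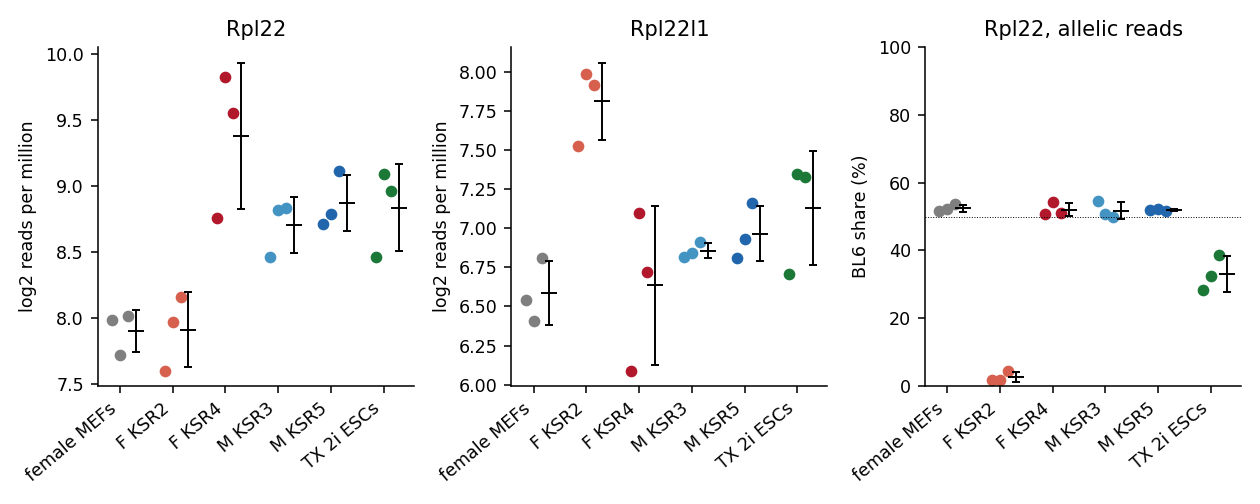
Level of Rpl22 and Rpl22l1 in log2 RPM and share of BL6 reads among the allelic reads of Rpl22 in percent (y axes), by group (x axes). Points are libraries and bars give the mean and SD of 3 replicates. F KSR2 has low Rpl22, high Rpl22l1 and a BL6 share of 1.67 to 4.49%, while TX 2i ESCs lie at 28.2 to 38.8% and the other groups near 52%.

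Chromosome 6 holds 1 member, Rpl32 of the 60S subunit, and in F KSR2 nearly all of its reads were BL6. The BL6 share was 98.3, 98.0 and 93.5% in F KSR2 and 47.5 to 52.4% in the other KSR-iPSC libraries, and the median gene of chromosome 6 stood at 97%. The mean log2 level of Rpl32 was 9.56 ± 0.36 (SD, n = 3) in F KSR2, against 10.09 ± 0.49 (F KSR4), 9.44 ± 0.20 (M KSR3) and 9.60 ± 0.33 (M KSR5), and was not called (-0.15). On chromosome 9, Rpsa (71.0, 70.5 and 69.9%) and Rpl14 (74.0, 71.4 and 70.6%) had more BL6 reads in F KSR2 than the other lines (means 55.4 and 56.2%), as did their neighbours (median 66.7 against 51.3% over 17 genes within 2 Mb). Rps7 on chromosome 12 differed by 4.13 points. For these 4 genes too p was 0.00455 and the adjusted p 0.0625 (exact permutation test). Rpl14 had levels of 9.70, 9.97 and 10.27 in F KSR2 and of 9.02 to 10.01 in the other lines.

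F KSR4 had 10 members higher and 0 lower than the other 3 lines (limma), against 1.5% of all genes higher and 4.18% lower (5.69% in all), and 63 members had an unadjusted p under 0.05. The median of the members was 0.47 and that of all genes -0.16. With median-of-ratios scaling 320 of all genes were higher and 256 lower, and centred on the members 67 and 6115, in place of 220 and 612. Among the members called were Rpl13, Rpl17, Rpl22, Rpl23a and Rpl28 of the 60S and Rps6, Rps15, Rps24 and Rps26 of the 40S subunit. Rps26 was at 9.58, 10.63 and 11.24, with the other lines up to 9.83 and an overlap through replicate 1 (1.03 ± 0.24, adjusted p = 0.0213, limma).

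The count of 10 was not stable. It was 1 when the 12 KSR-iPSC libraries alone were fitted, 21 with median-of-ratios scaling and 17 with limma-voom. The calls over all genes moved too, to 50 higher and 110 lower in the fit of 12 libraries and 273 and 482 with limma-voom. They were 618 and 2014 without F KSR4 replicate 1, 202 and 376 without replicate 2 and 196 and 793 without replicate 3. The count of members was 56 without F KSR4 replicate 1, 2 without replicate 2 or 3 of that line, and 16 without F KSR2 replicate 3 or M KSR5 replicate 3. It was 6 without F KSR2 replicate 1 or 2, and 5 without any 1 of the 3 M KSR3 libraries or without M KSR5 replicate 1 or 2. Centred on the members, Rps26 (0.46) was higher and Rpl22l1 (-1.14), Rpl7l1 (-1.23), Rpl35a (-0.48) and Rpl14 (-0.39) lower in F KSR4. The lines it was compared with include F KSR2, where Rpl22l1 (1.17) and Rpl14 (0.69) were called higher with the same centring. The part of F KSR2 in these differences was not tested. Rpl13, on chromosome 8, had a BL6 share of 54.0% ± 5.66 (SD, n = 3) in F KSR4, against 40.6% (F KSR2), 39.7% (M KSR5) and 54.6% (M KSR3).

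In M KSR3 1 member was called, Rpl39l (-1.43 ± 0.41, adjusted p = 0.0287, limma), against 12.8% of all genes (7.98% higher, 4.84% lower), and it was no longer called without any 1 of the 3 M KSR3 libraries. Without F KSR2 replicate 1 there were 8 calls (1132 higher and 762 lower over all genes). Without F KSR4 replicate 1 there were 13 (1561 and 872 over all genes, in place of 1168 and 708). In M KSR5 0 members were called (limma; 2 at an unadjusted p under 0.05), against 1.1% (0.396% higher, 0.704% lower). In M KSR3 the members differed by chromosome. The median member was 0.20 higher on chromosome 1 (3 members) and 0.11 on chromosome 11 (7 members) than in the other lines, beside -0.28 for the members off chromosome 1 and -0.29 for those off chromosome 11. The medians of all genes were 0.58 on chromosome 1 and 0.36 on chromosome 11. On chromosome 8 all genes had a median of 0.38 and its 2 members one of -0.29. Centred on the members, Rpl7, Rpl31 and Rpl37a (chromosome 1) and Rpl19 and Rpl26 (chromosome 11) were the 5 members called, at 0.46 to 0.50 (limma). Over all genes the calls in M KSR3 were then 1508 higher and 256 lower, and 887 and 896 with median-of-ratios scaling, in place of 1168 and 708. In M KSR5 the 4 members of chromosome 15 had a median difference of 0.24 against -0.11 elsewhere, beside 0.44 for all genes of the chromosome.

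Allelic reads of the members were then compared between lines. Of 69 members with enough allelic reads in all KSR-iPSC libraries, 9 had a different BL6 share in M KSR3 (adjusted p = 0.0474 for each, exact permutation test), against 9.6% of all genes, and all 9 were higher. Rpl7 (60S, chromosome 1) was at 63.8, 64.8 and 63.0% in M KSR3 and at 45.5 to 48.0% in the other lines. Rpl19 (60S, chromosome 11) was at 54.4, 56.0 and 56.3%, against 37.6 to 42.7%. Neither gene overlapped between M KSR3 and the other lines, and the means of Rpl37a (51.0 against 36.3%) and Rpl26 (63.4 against 47.5%) differed by similar amounts. The others called were Rpl23, Rpl23a, Rpl27 and Rpl38 on chromosome 11 and Rpl15 on chromosome 14. In M KSR5 the 3 members with reads on chromosome 15 had the smallest p that the test allows, 0.00455 (exact permutation test, adjusted p = 0.258): Rpl8 at 65.7, 67.2 and 56.5%, Rpl37 at 70.2, 68.8 and 62.0% and Rpl3 at 51.5, 50.6 and 41.6%, where the other lines averaged 51.8, 55.4 and 36.5%. In each of the 3 genes replicate 3 was the lowest of the line. No member was called in F KSR2, F KSR4 or M KSR5, where 0.0% of all genes were called as well. The smallest p was reached there by 5, 0 and 3 members. Since no p can be lower, the adjusted p of such a gene depends on how many genes share it. In M KSR3 718 genes were called. A missing call therefore does not mean a smaller difference. Rpl15 was called in M KSR3 at a mean of 28.5%, against means of 23.4 to 24.2% in the other lines. Rpl22 was not called in F KSR2 at 2.68%, against 51.8 to 52.0%.

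**Figure D5:**
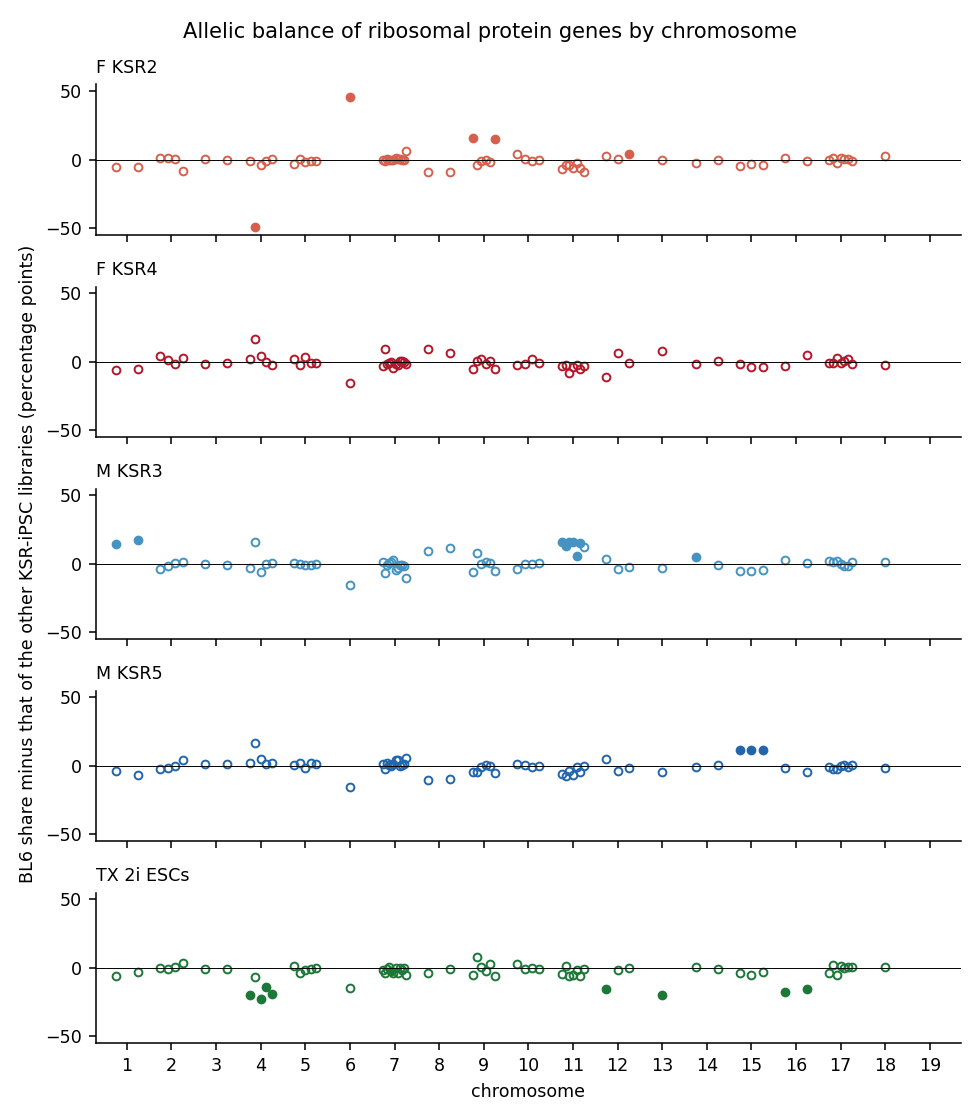
Difference in the BL6 share of allelic reads (y axis, percentage points) between 1 group and the remaining KSR-iPSC libraries for each member with enough reads, by chromosome (x axis), with 1 panel per group. Filled points have the smallest p that the permutation test can give. They fall on chromosomes 4, 6, 9 and 12 in F KSR2, on 1, 11 and 14 in M KSR3, on 15 in M KSR5 and on 4, 7, 12, 13 and 16 in TX 2i ESCs.

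TX 2i ESCs had 9 members with a different BL6 share than KSR-iPSCs (adjusted p = 0.0258 for each, exact permutation test), against 10.2% of all genes, and all 9 were lower. Of those called, Rps20, Rpl11 and Rps6 lie on chromosome 4, whose median gene was at 32.4% in TX 2i ESCs. Rpl24 (32.9 against 50.3%) and Rpl35a (53.5 against 69.0%) lie on chromosome 16, whose median gene was at 34.4%. Rpl10l was at 36.8, 33.2 and 34.3% and averaged 50.5% in KSR-iPSCs, whose lowest library (F KSR4) was at 38.4%, while chromosome 12 as a whole (51.4%) and the 5 genes with reads within 2 Mb of it (median 52.1%) were balanced. Rps23 on chromosome 13 was at 17.6, 15.5 and 12.5%, against 35.1% in KSR-iPSCs, from 337 allelic reads, and the 7 genes around it had a median of 46.9%.

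Apart from these regions most members were near balance in every group. Between 56 and 61 of 66 to 71 members with reads had a BL6 share of 30 to 70%. A few were skewed to the same side in all groups, MEFs included. Toward CAST were Rpl27 (6.10 to 12.8%, highest in M KSR3), Rpl28 (13.6 to 15.2%), Rps10 (16.1 to 18.4%) and Rpl6 (14.9 to 21.6%). Toward BL6 were Rpl21 (87.7 to 92.5%) and Rpl29 (70.2 to 85.0%). Exact copies elsewhere in the BL6 genome can change which reads count as allelic, and their part in these skews was not tested.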

How the data were processed

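RNA-seq of 18 libraries was used, and the 82 samples of methylation sequencing were not analysed here. The authors trimmed strand-specific poly(A) reads with Trim Galore v0.6.1, mapped them to GRCm38 with HISAT2 v2.1.0, quantified them on genes in SeqMonk and deposited log2 values. Low values of a library are whole multiples of 1 step whatever the gene length, so that the deposited log2 values are log2 RPM (reads scaled to depth) without correction for length, and a gene without reads stands at 0.9 read. The study calls its expression values log2 RPKM, a unit with length correction. The steps of the deposited values show none, and the levels per coding length rest on this reading. Coding length leaves out the untranslated ends, so shares of a pair serve to compare groups more than genes. For the allelic columns the authors mapped to the BL6 and CAST genomes and kept reads specific to either. The 18 columns of reads without a SNP were not used. The labels give paired 150-base reads and the methods a shorter single-end format. This was not settled, and copies were counted over 50-base windows.

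Reads were recovered from the values (99.98 to 100% within 0.05 read of a whole number). For the lower bounds of folds and differences a count of 0 was given a floor of 3 reads, while limma used the deposited values. Floors cover counting error only. For genes whose log2 value exceeded 0 in 3 or more libraries, limma 3.58.1 (R 4.3.3; trend, threshold 0.05) compared the levels. All 18 libraries entered 1 fit, except that female and male lines were compared within the 12 KSR-iPSC libraries. The authors used edgeR and an intensity filter for the latter, but edgeR needs counts, so limma-voom on recovered reads was an alternative. Shares were tested by exact permutation (Python 3.11.15, scipy 1.17.1). BL6 shares needed 20 allelic reads in each library, and their tests and the 2 Mb windows were added after the values had been seen. The limma and permutation steps were tested on simulated data.

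The members and gene lists were chosen with earlier results of these data known. Named by rule were the paralogs, Rplp0 to Rplp2, Rpsa, the 3 highest members and the 3 lowest core members, up to 5 members per direction and main comparison with the largest called change and no overlap, and members called in 1 line. Start sites and coding lengths are from RefSeq (GRCm38.p6). Some members named by this rule are counted but not reported by name here.

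Libraries with the same replicate number were not treated as paired in the main fits, and the labels do not say whether they are. Over all genes past the filter, the correlation of their deviations ran from -0.197 to 0.382 (median 0.0393, 45 pairs) and for different numbers from -0.426 to 0.338 (90 pairs). The median deviation of the members was highest in replicate 3 of every group, from 0.13 (M KSR3) to 0.29 (F KSR2). Whether a number marks a shared batch was not tested.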

Additional observations from a re-analysis of the deposited data

Results flagged for a closer look

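Of 52 sets of 6 libraries of the same sex examined for a single outlying library, 2 were picked out, and chance alone picks about 1 in 20. Rpl7l1 was at a log2 level of 6.26 in F KSR4 replicate 2, the lowest of the 6 female KSR-iPSC libraries, with the nearest at 7.73 (gap of 0.842 of the range). The same library had the highest share of reads on ribosomal protein genes, 10.6%, and the lowest share of its reads on genes, 82.5%. Rpl22l1 was at 7.16 in M KSR5 replicate 3, the highest of the 6 male KSR-iPSC libraries, with the nearest at 6.93 (0.66 of the range). That library also had the highest share of the male libraries on ribosomal protein genes, 7.45%. The part of these shares in the outlying levels was not tested.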

How the results depend on the processing

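The share of reads on the members was 2.97 points higher in pluripotent cells also by group means, where p was 0.333, and leaving out 1 library each gave 2.69 to 3.15 points. KSR-iPSCs minus TX 2i ESCs came to 0.144 to 0.789 points with 1 library left out and to -0.181 without the F KSR4 line, an alternative added after the data were seen. Female minus male lines gave 0.898 to 2.01 points with 1 library left out and 0.104 without the F KSR4 line. Members higher in pluripotent cells than in MEFs numbered 65 to 78 and members lower 0 with 1 library left out. The counts were 0 to 2 higher and 2 to 3 lower for KSR-iPSCs against TX 2i ESCs, 0 to 2 higher and 0 lower for female against male lines, 1 to 3 for F KSR2, 2 to 56 for F KSR4, 0 to 13 for M KSR3, 0 for M KSR5 and 62 to 76 for members that vary among the 6 groups (71 in the main fit, against 78.1% of all genes). The 56 in F KSR4 came with 618 higher and 2014 lower over all genes, in place of 220 and 612.

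Centring each library on the members leaves differences among members by construction. It gave 6 higher and 2 lower in pluripotent cells (3179 and 6670 of all genes, in place of 6167 and 4750), 0 higher in KSR-iPSCs, 6 in F KSR4 (2 higher, 4 lower), 5 in M KSR3 and 13 that vary among groups. It reversed Rplp0 (-0.40), Rplp1 (-0.39), Rpl22l1 (-0.23), Rpl17 (-0.08) and Rplp2 (-0.06) against MEFs, Rps6 in F KSR4 (-0.01) and the median of the members between sexes (-0.05). Median-of-ratios scaling gave 21 calls in F KSR4 and 5 in M KSR3, limma-voom 17 and 5, the fit of 12 libraries 1 and 0. No filter on low values gave 5 in F KSR4, and a stricter filter 2 in M KSR3. The fit of all 18 libraries called 3 members higher in female lines, and without the F KSR4 line 2 were higher and 1 lower. The labels do not say whether replicate numbers pair the libraries. The replicate block gave 78 members higher against MEFs in place of 74, Rplp1 among them. It gave 2 higher in KSR-iPSCs, 1 higher in female lines, 47 in F KSR4 and 11 in M KSR3. Over all genes that block gave 341 higher and 812 lower in F KSR4, and 1289 and 785 in M KSR3. The causes were not tested. Of 1571 values for single members and medians under an alternative, 1456 kept direction and side of the threshold, 95 lost and 12 gained the call. Depth limits Rpl3l most, with at most 90 reads in a library.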
